A study of Gallus gallus with 4 samples.

Results

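Draxin, CFC1 and CDON are extracellular or membrane-bound modulators of WNT, Nodal and hedgehog signals, and their RNA was compared between cranial and trunk neural crest cells of the chick embryo. The genes were chosen by name from the authors' deposited table, in which every listed transcript is higher in cranial than in trunk cells. Chosen were the row of draxin (gene symbol DRAXIN) on chromosome 21 beside AGTRAP, the row written CFC1_CHICK and the row written CDON. They are 3 of the 212 rows of the table.

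Neural crest cells arise at the border of the neural plate, leave the dorsal neural tube and migrate, and those of the head and of the trunk form different derivatives. The study sorted them by flow cytometry as living, GFP-positive cells after electroporation of an enhancer of FoxD3, a transcription factor gene of early crest. Cranial cells carried the NC1 enhancer and were taken at Hamburger-Hamilton stage HH9+. Trunk cells carried the NC2 enhancer and were taken at the later stage HH14. There were 2 libraries per group, cranial A and B and trunk A and C, from amplified cDNA. Genotype, strain, the number of embryos per library and the embryos pooled are not given in the sources used here. Axial level, stage and enhancer change together, so their parts in any difference cannot be told apart. The labels do not say whether libraries of a group came from separate pools of embryos.

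WNT, Nodal and hedgehog ligands are each met outside the cell by proteins that raise or lower what reaches the receptor. Draxin, also known as neucrin, is a secreted protein that repels axons and antagonises canonical WNT signalling through the co-receptor LRP6, and in chick cranial crest it is known to act on delamination. CFC1 belongs to the EGF-CFC family, whose members sit at the cell surface and let Nodal ligands engage activin-type receptors, best known for left-right patterning. CDON is a transmembrane protein with immunoglobulin and fibronectin repeats that binds Sonic hedgehog, and it works alongside BOC and GAS1 in mouse.

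All 3 genes were higher in cranial cells, as are all 212 rows of the authors' deposited table, so the direction is not particular to them. Draxin and CFC1 differed by larger folds than CDON. By the authors' deposited table, DRAXIN had a cranial level of 107 FPKM (fragment abundance per transcript length and sequencing depth) and a trunk level of 9.08 FPKM. For CFC1 the authors' deposited table gives a cranial level of 28.3 FPKM and a trunk level of 1.36 FPKM. The CDON levels of the authors' deposited table were 27.7 FPKM in the cranial and 10.3 FPKM in the trunk group. In the cranial group draxin lay above CFC1 and CDON, which were nearly equal, while in the trunk group draxin and CDON were close and CFC1 lay below both. Each is the authors' single group value, with no spread over libraries, so neighbours in either order cannot be said to differ and no change of order between the groups is shown. In a bulk sample, fewer cells that express a gene and less RNA per cell cannot be told apart.

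**Figure D1:**
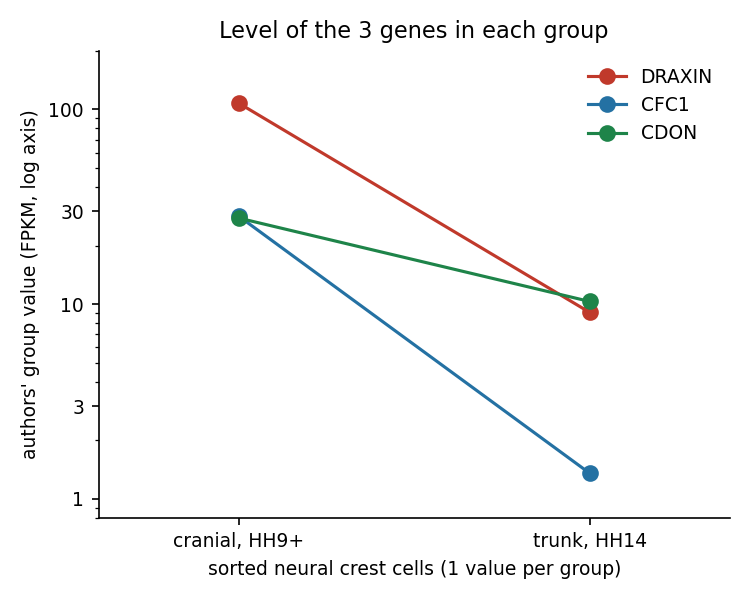
Level of draxin, CFC1 and CDON in cranial (HH9+) and trunk (HH14) neural crest cells, as FPKM on a log axis; each point is the authors' single value for a group and each line joins a gene's values. Draxin goes from 107 to 9.08 FPKM and CFC1 from 28.3 to 1.36 FPKM, while CDON goes from 27.7 to 10.3 FPKM.

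Draxin, the secreted WNT antagonist, was 11.8-fold higher in cranial cells by the values of the authors' deposited table, a log2 fold of 3.56. An implied standard error (SE) of 0.59 follows if the authors' test score is read as the log2 fold over its error, which gives a 95% interval from 5.32-fold to 26.3-fold. Every listed row has a q under 0.05 from the same score. That the implied interval of a listed gene leaves out equal levels was therefore fixed in advance. The authors' deposited table gives this row a score of 6.06 and a q-value of 3.92e-07, and 19 rows have a smaller q. The gap between groups was 98.4 FPKM, rank 5 in the authors' deposited table, where draxin was 12th by cranial level and 35th by fold. No row of the authors' deposited table had both a higher cranial level and a larger fold than draxin. Likewise, 0 rows of the authors' deposited table had both a higher trunk level and a larger fold, although 54 rows had a higher trunk level. Neither count is particular to draxin. In the authors' deposited table both were also 0 for LRP1B, and the trunk count was also 0 for CFC1 and CCDC3. Among the 12 rows with at least 100 FPKM in cranial cells, folds in the authors' deposited table ran from 1.55 to the 11.8 of draxin, with a median of 3.22. A row without a symbol was nearly the same, at 11.7-fold with 163 FPKM in the cranial and 13.9 FPKM in the trunk group by the authors' deposited table, so draxin's place rests on a small margin. That limit of 100 FPKM was set after the values were seen.

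CFC1, the Nodal co-receptor, had the largest fold of the 3 genes, 20.8-fold or 4.38 on the log2 scale in the authors' deposited table. Its implied SE was also the largest, 0.73, with an implied 95% interval from 7.68-fold to 56.4-fold. The score was 5.97 and the q-value 6.73e-07 in the authors' deposited table, close to those of draxin. The fold rests on a low trunk value, which ranked 136th of 212 in the authors' deposited table. After adding 1 FPKM to each group value given by the authors' deposited table, CFC1 was 12.4-fold higher, draxin 10.8-fold and CDON 2.53-fold. With 5 FPKM added to each, draxin was ahead, at a log2 fold of 2.998 against 2.39 for CFC1, so which of them had the larger fold depended on the trunk value of CFC1. In the authors' deposited table, 2 rows had both a higher cranial level and a larger fold than CFC1, and both lack a gene symbol.

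CDON, the hedgehog-binding co-receptor, differed least, at 2.68-fold or 1.42 on the log2 scale in the authors' deposited table. Its implied SE was 0.34 and the implied 95% interval ran from 1.68-fold to 4.27-fold. The authors' deposited table lists a score of 4.14 and a q-value of 0.00269 for CDON. By fold it stood 151st of 212 rows of the authors' deposited table, below the median row at 4.34-fold. By trunk level it was 48th in the authors' deposited table, the highest of the 3 genes there. In cranial cells CDON and CFC1 were adjacent in rank in the authors' deposited table, 50th and 49th, and 30 rows had both a higher cranial level and a larger fold than CDON.

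**Figure D2:**
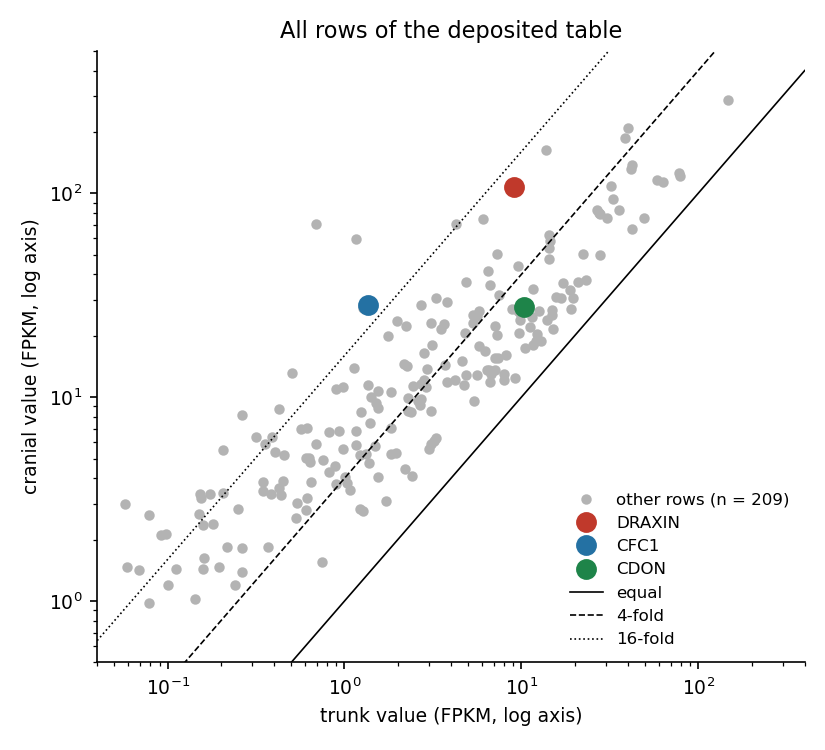
Cranial against trunk value of all 212 rows of the authors' deposited table, in FPKM on log axes, with lines for equal values and for 4-fold and 16-fold differences. Draxin lies at the upper edge of the cloud at 107 FPKM, CFC1 lies above the 16-fold line at 20.8-fold, and CDON lies between the lines of equal values and 4-fold, at 2.68-fold.

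Ratios between the genes within a group followed from these values. They compare different genes in amplified cDNA, and how far gene length or amplification shifts them was not tested. Draxin stood at 3.89 times CDON in cranial cells and at 0.880 times CDON in trunk cells, by the values of the authors' deposited table. By the same values of the authors' deposited table, the ratio of CFC1 to CDON was 1.02 in the cranial and 0.131 in the trunk group. The ratio of draxin to CFC1 was 3.80 in the cranial and 6.69 in the trunk group by the authors' deposited table.

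The 3 pairs of folds were set against their implied errors, taken as independent although all come from the same libraries. Draxin exceeded CDON by 2.14 in log2 fold by the authors' deposited table, and the 95% interval computed here from the implied errors ran from 0.81 to 3.48. For CFC1 and CDON, the log2 folds in the authors' deposited table differed by 2.96, and the computed interval ran from 1.37 to 4.55. Both intervals lie above 0. Rows entered the table through the same scores that give these errors, and the genes were picked with earlier results known. The intervals therefore describe the listed values and test no difference between genes. Draxin minus CFC1 came to -0.82 on the log2 scale in the authors' deposited table. The computed interval ran from -2.66 to 1.03, which takes in 0, and neither a difference nor an equal fold is shown. No p-value is attached to these pairs, and the spread between libraries behind them is unknown.

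Calls over the whole table give the scale for these values. All 3 genes had a q under 0.05, as did 100% of the rows. The authors' deposited table holds only rows with such a q, all of them higher in the cranial group. A q under 0.01 was given to 3 of 3 genes, against 63.2% of rows of the authors' deposited table. For a q under 0.001 the count was 2 of 3, draxin and CFC1, against 38.7% of rows of the authors' deposited table. Again 2 of 3, draxin and CFC1, differed by 4-fold or more and by 8-fold or more, against 54.2% and 26.9% of all rows in the authors' deposited table. The median log2 fold of the 3 genes was 3.56 and that of all rows 2.12 in the authors' deposited table. With 3 genes picked by name, these shares describe the genes and test nothing.

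Rows whose cranial and trunk levels lay nearest to each gene were found by distance on the log2 scale over the 2 group values. Draxin had 0 rows within 0.5 log2 units and 2 rows within 1 in the authors' deposited table. Such counts were made for draxin, CFC1 and CDON only. Whether a count of 0 is unusual, or particular to draxin among rows of high level, was not tested. The row with a symbol nearest to draxin was LRP1B, a large receptor of the LDL receptor family. Its cranial level was 75.2 FPKM and its trunk level 6.04 FPKM by the authors' deposited table (q = 0.0192). Then, again among rows with a symbol, came SPINT1, an inhibitor of membrane serine proteases. Its levels were 62.4 and 14.3 FPKM by the authors' deposited table (q = 2.59e-06). A row without a symbol, at 163 and 13.9 FPKM in the authors' deposited table, lay nearer to draxin than SPINT1. ENC1, an actin-binding protein of ectoderm and neural tissue, followed with 58.2 and 14.4 FPKM by the authors' deposited table (q = 0.0295).

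CFC1 had 1 row within 0.5 log2 units in the authors' deposited table, CCDC3, which encodes a secreted protein. The CCDC3 levels of the authors' deposited table, 27.2 FPKM cranial and 1.27 FPKM trunk, lay 0.11 log2 units away (q = 1.48e-09). Next among rows with a symbol were COL9A1, a chain of cartilage collagen IX, and the secreted protein gene CYTL1. Their trunk levels were 2.23 and 2.72 FPKM in the authors' deposited table. Rows without a symbol lay nearer to CFC1 than both, with 23.7 and 20.0 FPKM cranial and 1.97 and 1.77 FPKM trunk by the authors' deposited table. CDON had more rows near it than draxin or CFC1, with 11 within 0.5 log2 units and 40 within 1 in the authors' deposited table. The nearest with a symbol were SLC4A8, a bicarbonate transporter, the lipid phosphatase PLPP1 and NDST2, an enzyme that modifies heparan sulfate. Their folds in the authors' deposited table were 2.62, 2.62 and 3.06. Likeness over 2 values that every row shares says little of a gene, and only the levels are described.

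**Figure D3:**
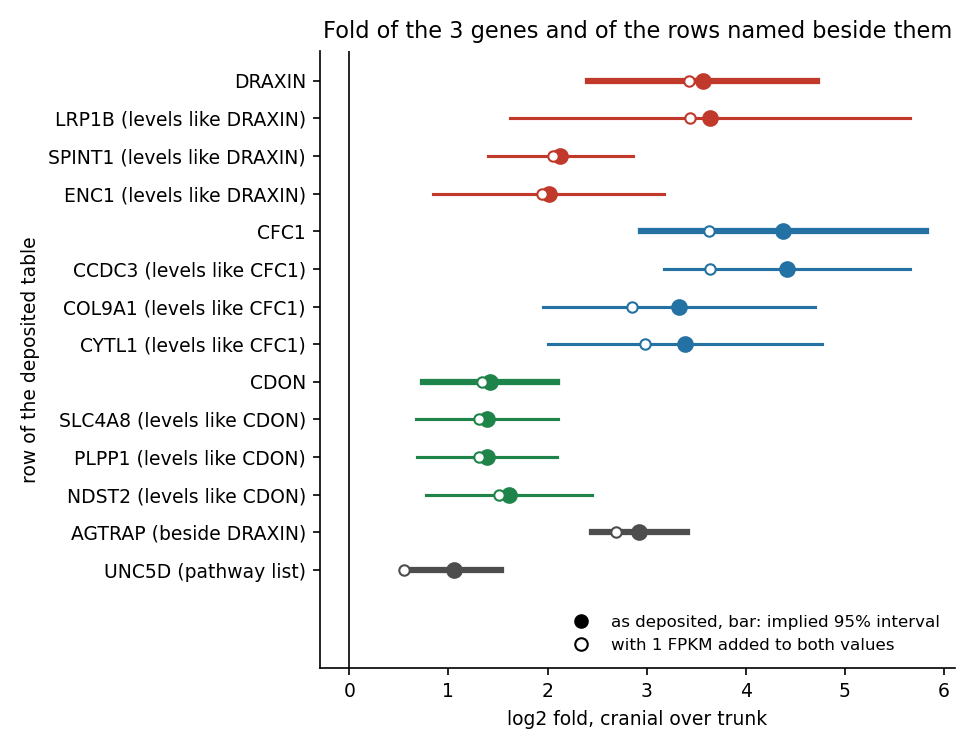
Log2 fold, cranial over trunk, of draxin, CFC1, CDON and other rows. These are, among rows with a symbol, the 3 with levels most like each gene, then AGTRAP beside draxin and UNC5D. Filled points are as deposited with the implied 95% interval as a bar, and open points have 1 FPKM added to both values. The interval of CDON (0.75 to 2.09) lies below those of draxin (2.41 to 4.72) and CFC1 (2.94 to 5.82), and CFC1 moves from 4.38 to 3.63 with 1 FPKM added.

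The position of each row was read as the authors' deposited table writes it. The submitters' processing notes name galGal4, while some rows of the table use sequence names of an earlier assembly, so the build of these positions is not settled and no exon, intron or UTR was assigned. The authors' deposited table places draxin (ENSGALG00000004631) on chromosome 21, from 5834624 to 5846742. The other row on chromosome 21 in the authors' deposited table is AGTRAP, which encodes a protein that binds the angiotensin receptor, and it ends 5208 bases before draxin begins. By the authors' deposited table, AGTRAP was 7.60-fold higher in the cranial group, with levels of 36.8 and 4.84 FPKM, an implied SE of 0.25 on the log2 scale and a q listed as 0. The neighbouring rows were both higher in cranial cells, as is every row of the table.

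CFC1 (ENSGALG00000012623) is placed on chromosome Z, from 41910141 to 41915114, and CDON (ENSGALG00000000939) on chromosome 24, from 335122 to 374845, by the authors' deposited table. The nearest listed row to CFC1 is 14.1 megabases away and the nearest to CDON, the protease gene ADAMTS15, is 1.33 megabases away in the authors' deposited table. None of the 3 genes shares its locus with another row of the table. In the RefSeq gene table of assembly GRCg7b, AGTRAP and MAD2L2 flank draxin and the spans of draxin and MAD2L2 overlap. The labels name no strand-specific step, so the draxin level is uncertain where the genes overlap, and MAD2L2 has no row of that name here. The spans of CFC1 and CDON do not overlap those of their neighbouring protein-coding genes there.

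Other parts of the 3 pathways were sought by name in 7 lists with 166 distinct genes, of which 151 have their symbol in the RefSeq gene table. The list of WNT ligands, receptors and extracellular modulators had 1 listed row among 57 entries, draxin itself. For Nodal, the corresponding list had 1 listed row among 25 entries, CFC1, and for hedgehog 1 among 18, CDON. The lists of intracellular parts and targets had 0 listed rows for WNT, Nodal and hedgehog, among 25, 14 and 15 entries. LRP6, BOC, GAS1 and the Nodal ligand gene itself were thus not listed under their symbols. Genes not in the table were not measured here, so a count of 0 does not show equal levels, and 77 rows without a symbol were not searched. Since every listed row is higher in the cranial group, a pathway gene higher in trunk could not be listed. The share of all chicken genes that is listed is not known here, so whether these counts are few or many for lists of this size was not tested.

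The list of binding partners of draxin and CDON, with their receptor families, had 1 listed row among 16 entries. This was UNC5D, a receptor of the netrin receptor family, with a cranial level of 1.56 FPKM and a trunk level of 0.746 FPKM by the authors' deposited table. The 2.09-fold difference had a q of 0.000961 in the authors' deposited table, and the gap of 0.810 FPKM was the smallest of all 212 rows. The UNC5D fold shrank to 1.46 once 1 FPKM was added to each value from the authors' deposited table. Netrin genes and other members of the family were not listed under their symbols.

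The label of the cells was checked against a list of 12 neural crest markers, of which SOX8 was listed, with levels of 30.7 and 3.30 FPKM by the authors' deposited table. FOXD3 and SOX10 were not listed under their symbols, so the labelled cell type could not be checked by them. Of 6 surface ectoderm markers, CDH1 and ESRP1 were listed, 4.40-fold and 4.82-fold higher in the cranial group by the authors' deposited table. The marker lists for neural tube, mesoderm, endothelium with blood, and endoderm with notochord each had 0 listed rows. Every listed row is higher in the cranial group, so a marker equal in both groups or higher in trunk could not appear. These counts therefore cannot show whether such cells were present in either group. Levels of the other markers in either group are not known here, and the part of such cells in the values of draxin, CFC1 and CDON was not tested.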

How the data were processed

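RNA was measured in 4 libraries of sorted chick neural crest cells, 2 cranial and 2 trunk. TopHat, Cufflinks and Cuffdiff 2.1 appear in the submitters' processing notes, without order or role. The authors' deposited table gives 1 value per group, read as FPKM because Cuffdiff writes that unit; the file headers say only value. The log2 fold, the test score and the p-value and q-value are the authors', per the file headers. The log2 fold was turned round to cranial over trunk and equalled the log2 ratio of the values within 0.0001 in 212 of 212 rows. For 193 of 193 rows whose p is at least 1e-10, the normal two-sided p computed from the score matched it within 1%, so the score behaves as a z value. The deposited score is positive where the deposited log2 fold, trunk over cranial, is negative. The implied SE, the turned log2 fold over the score, further assumes that this z value was formed from the log fold; no header states that, and it was not tested. Replicate spread and depth are unknown, so no SD or counting interval is given, and the limma fit planned for values per library was not used. Genes were matched by symbol, gene number or protein entry name to RefSeq (GRCg7b) and 22 hand translations; 135 rows got a symbol. Besides the 3 genes, the text names the 3 rows with a single symbol nearest in levels to each, neighbouring rows and listed pathway genes. The genes and lists were chosen with earlier results of these data known. Python 3.11.15, pandas 2.3.3 and scipy 1.17.1 were used. Only the fold, implied SE, rank and distance steps were run on simulated data. The simulated score was made as the log2 fold over its error, so that run could not test this reading of the deposited score. No protein or promoter sequence was used here.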

Additional observations from a re-analysis of the deposited data

How the results depend on the processing

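Every direction was kept, but this was fixed in advance. All rows are higher in cranial cells, and neither adding the same amount to both values nor ranking fewer rows can turn a fold round. With 1 and 5 FPKM added to both values, the log2 fold of CFC1 fell from 4.38 to 3.63 and 2.39, a move of more than its implied SE. Those of draxin and CDON moved by less, to 3.43 and 1.34 with 1 FPKM and to 2.998 and 1.09 with 5 FPKM, so that at 5 FPKM the fold of draxin was above that of CFC1. Rank by fold depended on low rows. Draxin went from 35th to 8th with 1 FPKM added and to 8th among the 149 rows of at least 1 FPKM in both groups. It was 2nd among the 81 rows of at least 5 FPKM in trunk, a limit chosen after seeing the data. CFC1, at 1.36 FPKM in trunk, falls outside that limit. Both limits leave fewer rows to rank and take out rows whose fold rests on a low trunk value, so a better rank there is no larger fold. CFC1 went from 13th to 5th with 1 FPKM added and to 3rd among the 149 rows. CDON went from 151st to 126th with 1 FPKM added. It was 89th among the 149 rows and 33rd among the 81 rows, where fewer rows are ranked. Without rows that share a locus, draxin was 29th, CFC1 10th and CDON 143rd of 202. Listed pathway genes numbered 4 with translated names and 2 as written. The median log2 fold of the table was 1.51 with 1 FPKM added, in place of 2.12. No paired analysis was possible because libraries have no values of their own here and only letter A occurs in both groups. Libraries could therefore not be left out in turn either. What depth limits in the low trunk level of CFC1 is not known.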

Other observations

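Draxin and AGTRAP are among 7 rows of the authors' deposited table that lie within 10 kilobases of a row at another locus. The others are SDSL with LHX5 and the unnamed row at the LHX5 locus on chromosome 15, and GJB1 with an unnamed row on chromosome 4. The median distance to the nearest listed row was 1.33 megabases over the 207 rows with another listed locus on the same sequence in the authors' deposited table. GJB1, a gap junction protein gene, had a cranial level of 11.5 FPKM and a trunk level of 1.36 FPKM by the authors' deposited table. The limit of 10 kilobases was set after the draxin and AGTRAP rows were seen, and the number of genes on each sequence was not taken into account.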
